A study of Homo sapiens with 8 samples.

Results

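The genes described here encode the nuclear subunits of the mitochondrial respiratory chain in BEAS-2B cells, an immortalised human bronchial epithelial line. A gene was taken by its symbol (NDUFA, NDUFB, NDUFC, NDUFS or NDUFV and a number, SDHA to SDHD, symbols beginning UQCR, and COX4 to COX8 followed by a letter) and by its level, averaging 1 FPKM or more across the 8 libraries. FPKM is a gene's fragments per kilobase of transcript, scaled by the library's sequenced fragments. Of 26485 genes in the tables, 68 symbols matched and 62 passed the level: 36 of complex I, 4 of complex II, 10 of complex III and 12 of complex IV. NDUFA4 is counted with complex IV, where its protein resides despite its symbol.

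RNA came from cells in 4 groups that crossed the siRNA (control, or directed at LY96) with the stimulus (PBS, or an extract of house dust mite, HDM). LY96 encodes MD-2, which binds bacterial lipopolysaccharide together with TLR4. BEBM medium replaced the growth medium 24 h ahead of the stimulus, and the RNA was taken 24 h after it. There were 3 control siRNA HDM libraries, 3 LY96 siRNA HDM libraries, 1 control siRNA PBS library and 1 LY96 siRNA PBS library, called control HDM, LY96 HDM, control PBS and LY96 PBS below. All are from 1 cell line, and the labels do not say whether libraries of a group were separate cultures, so the p-values measure a spread between libraries that may be technical. Neither the siRNA sequence nor the HDM dose is given in the labels. LY96 was listed at 0 in all 8 libraries, so these values do not show whether its siRNA lowered it, and groups are named by their labels.

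The respiratory chain sits in the inner mitochondrial membrane. Complex I takes electrons from NADH and complex II from succinate, ubiquinone carries them to complex III, and cytochrome c carries them on to complex IV, which reduces oxygen. Complexes I, III and IV pump protons, and ATP synthase uses the resulting gradient. Most subunits are encoded in the nucleus and imported, and a few are encoded by mitochondrial DNA. Symbols beginning MT-ND, MT-CO, MT-CYB or MT-ATP were not among the genes listed, so those transcripts could not be read here. Promoters of the nuclear subunit genes are known to carry sites for the activator NRF1, for GABP of the ETS family and for YY1.

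Promoter sequences of RefSeq (GRCh38.p14, 250 bases before to 50 after the start of transcription) were found for 51 of the 62 genes. Both strands were searched for GCATGCGC (the core of the NRF1 site), CCGGAAG (an ETS site, bound by GABP) and AAGATGGC (a YY1 site). The NRF1 letters stood in 9 of 51 promoters (17.6%), against 3.27% of all 27305 promoters in the table and 5.64% of those of tested genes. The ETS letters stood in 15 (29.4%), against 10.7% of all and 20.1% of tested genes. The YY1 letters stood in 8 (15.7%), against 3.03% and 5.75%. At least 1 of the 3 was present in 25 of the 51 (49.0%), against 15.6% of all promoters. That share was not computed for tested genes, which held each of the 3 more often than all promoters did. A match describes letters only, and whether a factor binds there was not measured.

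Shown are 4 upstream stretches, 1 from each complex, of genes that were lower with LY96 siRNA under HDM and whose stretch touched no annotated exon. They are written 5′ to 3′ on the strand of the gene, with the NRF1 or ETS letters of either strand in capitals. NDUFB4 encodes an accessory subunit of the complex I membrane arm, SDHB the iron-sulphur subunit of complex II, UQCR11 a small subunit of complex III and COX5B a subunit of complex IV. The run in NDUFB4 is a palindrome, in which the NRF1 letters of the 2 strands overlap. That in UQCR11 holds the ETS letters once on each strand. The stretches are parts of the promoters searched. Outside its stretch, the promoter of COX5B also holds the NRF1 letters, and that of SDHB the ETS and YY1 letters.
NDUFB4: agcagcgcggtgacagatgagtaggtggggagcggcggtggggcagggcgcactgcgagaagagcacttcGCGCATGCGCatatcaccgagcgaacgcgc
SDHB: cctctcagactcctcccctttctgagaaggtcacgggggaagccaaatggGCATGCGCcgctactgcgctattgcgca
UQCR11: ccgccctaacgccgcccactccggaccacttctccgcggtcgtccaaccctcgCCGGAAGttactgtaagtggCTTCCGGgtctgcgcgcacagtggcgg
COX5B: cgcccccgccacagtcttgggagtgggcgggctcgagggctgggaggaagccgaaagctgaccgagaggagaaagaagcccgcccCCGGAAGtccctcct
The stretches lie, in GRCh38.p14, at chr3:120596107-120596206 on the plus strand for NDUFB4, chr1:17054205-17054282 on the minus strand for SDHB, chr19:1605533-1605632 on the minus strand for UQCR11 and chr2:97645940-97646039 on the plus strand for COX5B. The 9 genes with the NRF1 letters had a median log2 difference between the siRNAs under HDM of -0.21, and the 42 matched genes without them -0.14. For the ETS letters the medians were -0.14 with and -0.15 without, and for the YY1 letters -0.16 with and -0.15 without. These medians are given as a description, with no test.

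The libraries were alike in total FPKM (329777 to 340328), and the read depth behind the values is unknown. Keratin genes and other airway epithelial markers summed to 2336 to 2657 FPKM, leukocyte markers to at most 0.279 FPKM with PTPRC, CD3E and CD163 at 0, and endothelial markers to at most 0.379 FPKM with PECAM1 at 0. Fibroblast markers summed to 16.03 to 25.74 FPKM, with DCN and LUM at 0. Of the 2 fibroblast markers tested, COL1A1 was higher with LY96 siRNA under HDM (log2 0.37, limma adjusted p = 0.0269). It measured 6.10, 6.08 and 5.72 FPKM in control and 7.27, 7.35 and 9.46 FPKM in LY96 HDM libraries. In PBS it measured 6.67 FPKM with control and 10.16 FPKM with LY96 siRNA. The other tested fibroblast marker, PDGFRB, was not called (log2 -0.08). PDGFRB measured 9.98, 10.83 and 10.20 FPKM in control and 10.35, 9.39 and 9.41 FPKM in LY96 HDM libraries. In PBS it measured 16.06 FPKM with control and 15.42 FPKM with LY96 siRNA. Under HDM, 3 of 9 epithelial markers were called lower with LY96 siRNA, KRT19 (log2 -0.66), KRT8 (-0.25) and KRT18 (-0.24), and CDH1 was called higher (0.49). Of all tested genes, 8.92% were called lower and 6.68% higher in this comparison. Ribosomal RNA took 0.475 to 0.824% of the total in control HDM libraries and 1.03 to 1.31% in LY96 HDM libraries. It took 0.770% and 0.826% in the control and the LY96 PBS library. The part of these differences in the results below was not tested.

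Levels of the respiratory chain genes differed widely from each other within the cell line. On the FPKM scale, which accounts for transcript length, the highest was COX7C of complex IV with a mean of 506 FPKM over the 8 libraries. COX6A1 (256 FPKM), COX5B (220.2 FPKM), COX8A (208 FPKM) and UQCRH (205 FPKM) followed. NDUFA13 was the highest gene of complex I (186 FPKM) and NDUFA5 the lowest (8.44 FPKM). Several complex IV subunits have paired isoforms. COX4I1 and COX7A2 averaged 158 and 145 FPKM. COX4I2, the isoform known from lung and hypoxia, COX6A2 of heart and muscle, and the testis isoforms COX7B2 and COX8C were listed at 0 in all 8 libraries, which in tables without read counts can also be a failed estimate. COX6B2 (0.14 to 0.47 FPKM) and COX7A1 (0.08 to 0.24 FPKM) were detected below the level of 1 FPKM and were not tested. UQCRHL, an intronless copy of UQCRH (15.6 FPKM), and UQCRBP1, a processed pseudogene of UQCRB (1.80 FPKM), met the rule but are copies whose reads could belong to the parent gene. The SDHA pseudogenes SDHAP1, SDHAP2 and SDHAP3 averaged 9.47, 9.26 and 2.45 FPKM and could have taken reads from SDHA or given reads to it.

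The comparison of the 2 siRNAs under HDM asks whether the subunit genes differ between cells given LY96 or control siRNA. Transcripts of subunits of each of the 4 complexes were lower in the LY96 HDM libraries. Of the 62 genes, 25 were called lower and 0 higher (limma on log2(FPKM + 1), Benjamini-Hochberg adjusted over 12598 genes, threshold 0.05), where 8.92% of all tested genes were called lower and 6.68% higher. The difference was below 0 in 60 of 62, with a median log2 difference of -0.14, against -0.02 over all tested genes. In mean FPKM the median gene was 9.57% lower, and the ratios ran from 0.788 (NDUFB5) to 1.01 (NDUFB9). In bulk RNA, fewer cells of a type and less RNA per cell cannot be told apart.

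The calls were spread over the complexes, with 15 of 36 genes in complex I, 3 of 4 in complex II, 3 of 10 in complex III and 4 of 12 in complex IV. Median log2 differences lay close together, at -0.14 for complex I, -0.15 for complex II, -0.15 for complex III and -0.14 for complex IV. Without LY96 HDM library 1 they were -0.10, -0.14, -0.10 and -0.11, and that of complex III moved most. Differences between complexes were not tested. At an unadjusted p under 0.05, 41 genes were lower and 0 higher, against 18.4% lower and 12.8% higher of all tested genes.

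**Figure D1:**
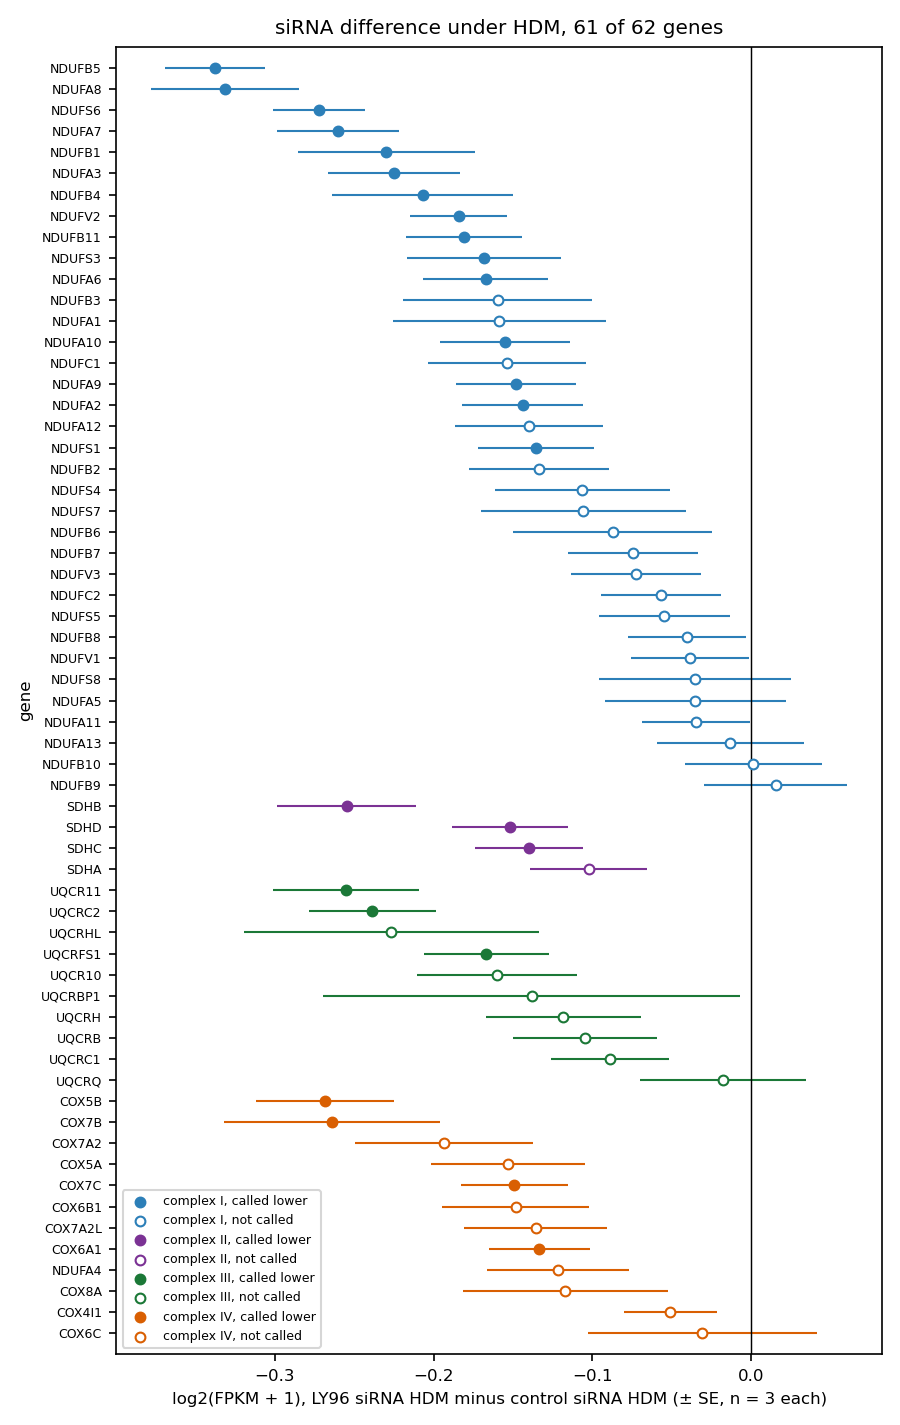
Log2(FPKM + 1) in LY96 HDM minus control HDM libraries for 61 of the 62 genes, grouped by complex (points, limma estimate; bars, ± SE; n = 3 libraries per group; filled, adjusted p below 0.05). Points lie left of 0 for 59 of them, and the 25 filled ones run from -0.34 for NDUFB5 to -0.13 for COX6A1.

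The count of 25 depended on single libraries and on the model more than the direction did. It was 16, 11 and 14 without control HDM library 1, 2 or 3, and 14 without LY96 HDM library 1. Over all genes 1124 were called lower, and 747, 553, 663 and 696 without these libraries. The count for the respiratory chain was 12 with no filter on low values, 12 with no trend and no robust moderation, and 38 with additive siRNA and HDM terms over 8 libraries. Over all genes these settings called 752, 820 and 1484 lower. With each of those 4 libraries left out the difference was below 0 in 61, 59, 59 and 55 of 62 genes. Scaling each library to the median gene left 22 called lower and 58 below 0, while over all genes it turned the split from 1124 lower and 842 higher to 895 lower and 1052 higher. Quantile normalization left 23 called lower and 55 below 0, with 958 lower and 991 higher over all genes. The call held under all 14 alternatives for 11 genes: NDUFB5, NDUFA8, NDUFS6, NDUFA7, NDUFA3, NDUFV2, NDUFB11, SDHB, UQCR11, UQCRC2 and COX5B.

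Complex I is an L-shaped enzyme with a matrix arm, whose N module binds NADH and whose Q module reduces ubiquinone, and a membrane arm that pumps protons. Genes were called lower in the N module (4 of 8), in the Q module (3 of 7) and among the remaining genes (8 of 21). The median log2 differences were -0.14, -0.11 and -0.15. The remaining genes are mostly of the membrane arm, but include every complex I gene not assigned to either module, NDUFA9 among them. NDUFB5 (chromosome 3, 179604690 to 179627647, GRCh38), an accessory subunit of the membrane arm, had the largest fall. It measured 69.0, 71.1 and 68.3 FPKM in the control HDM libraries and 55.3, 53.4 and 55.6 FPKM in the LY96 HDM libraries. Its mean went from 69.5 ± 1.47 to 54.8 ± 1.17 FPKM (SD, n = 3), and every LY96 HDM library was below every control HDM library (log2 -0.34 ± 0.03 SE, adjusted p = 0.000428). NDUFA8 (chromosome 9, 122144058 to 122159819), another accessory subunit of that arm, measured 51.0, 45.8 and 48.9 FPKM in the control HDM libraries and 37.7, 40.1 and 37.3 FPKM in the LY96 HDM libraries. The groups were again separate (log2 -0.33 ± 0.05 SE, adjusted p = 0.00282).

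NDUFS6 (chromosome 5, 1801400 to 1816605), a zinc-binding subunit of the N module, measured 127, 125 and 123 FPKM in the control HDM libraries and 101, 106 and 103 FPKM in the LY96 HDM libraries. It fell with no overlap (log2 -0.27 ± 0.03 SE, adjusted p = 0.000784). NDUFA7 (chromosome 19, 8308768 to 8321396), an accessory subunit beside the Q module, measured 47.6, 44.8 and 44.0 FPKM in the control HDM libraries and 38.6, 37.8 and 37.0 FPKM in the LY96 HDM libraries. It fell by a like amount (log2 -0.26 ± 0.04 SE, adjusted p = 0.00341). Among the nuclear core subunits, which form the electron path from NADH to ubiquinone, NDUFV2 (log2 -0.18, adjusted p = 0.00583), NDUFS3 (log2 -0.17, adjusted p = 0.0469) and NDUFS1 (log2 -0.14, adjusted p = 0.0376) were called lower. The calls of NDUFS3 and NDUFS1 were each lost in 9 of 14 alternatives, with adjusted p up to 0.134 and 0.115. The NADH-binding subunit NDUFV1 (log2 -0.04), NDUFS7 (-0.11) and NDUFS8 (-0.04) were not called.

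The other called genes of complex I were NDUFB1, NDUFA3, NDUFB4, NDUFB11, NDUFA6, NDUFA10, NDUFA9 and NDUFA2, with log2 differences from -0.23 to -0.14. They are accessory subunits, which surround the catalytic core and are needed for its assembly or stability. Among these genes, only NDUFA3 and NDUFB11 kept the call under all 14 alternatives. NDUFB9 (log2 0.02) and NDUFB10 (log2 0.0013) were the only genes of the 62 above 0, and neither was called. The most abundant gene of complex I, NDUFA13, a membrane-arm subunit also known as GRIM-19, measured 194 FPKM in the control PBS library, 182, 193 and 187 in the control HDM libraries, 171 in the LY96 PBS library and 173, 196 and 189 in the LY96 HDM libraries. The HDM groups overlapped and the gene was not called (log2 -0.01). NDUFA5, the least abundant, measured 8.49 FPKM in the control PBS library, 8.96, 8.77 and 7.96 in the control HDM libraries, 8.35 in the LY96 PBS library and 7.87, 8.56 and 8.56 in the LY96 HDM libraries, again with overlap (log2 -0.04).

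Complex II, succinate dehydrogenase, is also an enzyme of the citric acid cycle and is encoded wholly in the nucleus. For all 4 of its genes, every LY96 HDM library was below every control HDM library, as for 21.8% of all tested genes. The flavin-binding subunit SDHA (chromosome 5, 218241 to 256700) measured 128.4, 139.8 and 137.1 FPKM in the control HDM libraries and 123.2, 128.0 and 126.0 FPKM in the LY96 HDM libraries and was not called (log2 -0.10 ± 0.04 SE, adjusted p = 0.0927). The iron-sulphur subunit SDHB (chromosome 1, 17018722 to 17054170), whose upstream stretch with the NRF1 letters is printed above, measured 61.7, 60.1 and 63.6 FPKM in the control HDM libraries and 49.5, 50.6 and 54.9 FPKM in the LY96 HDM libraries. It had the largest fall of the 4, from 61.8 ± 1.71 to 51.7 ± 2.88 FPKM (SD, n = 3) (log2 -0.25 ± 0.04 SE, adjusted p = 0.00658).

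SDHC and SDHD anchor the enzyme in the membrane and bind heme and ubiquinone. SDHC (chromosome 1, 161314257 to 161375340) measured 24.7, 24.4 and 25.03 FPKM in the control HDM libraries and 22.5, 22.6 and 21.9 FPKM in the LY96 HDM libraries (log2 -0.14, adjusted p = 0.0262). SDHD (chromosome 11, 112086773 to 112120013) measured 55.6, 54.7 and 56.7 FPKM in the control HDM libraries and 48.8, 52.3 and 48.9 FPKM in the LY96 HDM libraries (log2 -0.15, adjusted p = 0.0246). Both were called lower, but each call was lost in some of the 14 alternatives, with adjusted p up to 0.0807 for SDHC and 0.0815 for SDHD. The call of SDHB was kept in all of them.

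Complex III, the cytochrome bc1 complex, had 3 genes called of 10. UQCR11 (chromosome 19, 1597172 to 1605490), a small subunit whose upstream stretch with the ETS letters is printed above, measured 55.5, 58.0 and 53.2 FPKM in the control HDM libraries and 43.7, 47.7 and 47.8 FPKM in the LY96 HDM libraries. The groups were separate (log2 -0.25 ± 0.05 SE, adjusted p = 0.00813). UQCRC2 (chromosome 16, 21952660 to 21983660), a core protein facing the matrix, measured 62.3, 65.1 and 66.8 FPKM in the control HDM libraries and 52.3, 55.2 and 56.6 FPKM in the LY96 HDM libraries and fell (log2 -0.24 ± 0.04 SE, adjusted p = 0.006). UQCRFS1 (chromosome 19, 29205321 to 29213541) encodes the Rieske iron-sulphur protein, the only catalytic subunit matched here. It measured 59.8, 64.2 and 61.7 FPKM in the control HDM libraries and 52.9, 55.3 and 56.9 FPKM in the LY96 HDM libraries and was called lower (log2 -0.17 ± 0.04 SE, adjusted p = 0.023). That call was lost in 6 of 14 alternatives, with adjusted p up to 0.0841.

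UQCRH, the hinge protein that contacts cytochrome c1 and the most abundant gene of complex III, measured 217 FPKM in the control PBS library, 207, 218 and 213 in the control HDM libraries, 197 in the LY96 PBS library and 183, 195 and 211 in the LY96 HDM libraries. LY96 HDM library 3 lay inside the control HDM range, and the gene was not called (log2 -0.12, adjusted p = 0.138). The copy UQCRBP1 had the lowest level of the 62 genes, measured 2.50 FPKM in the control PBS library, 2.40, 1.63 and 1.47 in the control HDM libraries, 1.70 in the LY96 PBS library and 1.40, 1.88 and 1.41 in the LY96 HDM libraries, and its groups overlapped. UQCRQ, known as a ubiquinone-binding protein, was nearest to 0 in this complex (log2 -0.02). UQCRC1, UQCRB and UQCR10 were below 0 with separate groups (log2 -0.09, -0.10 and -0.16) but were not called.

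Complex IV, cytochrome c oxidase, had 4 genes called of 12, all of them accessory subunits around a catalytic core encoded in mitochondria. COX5B (chromosome 2, 97646040 to 97648383), a zinc-binding subunit on the matrix side, measured 243, 250.2 and 234 FPKM in the control HDM libraries and 191, 214 and 199 FPKM in the LY96 HDM libraries. It fell from 242 ± 8.01 to 201 ± 11.4 FPKM (SD, n = 3), with no overlap (log2 -0.27 ± 0.04 SE, adjusted p = 0.00524). COX7B (chromosome X, 77899438 to 77907373), a small membrane subunit, measured 175, 179 and 181 FPKM in the control HDM libraries and 131, 156 and 158 FPKM in the LY96 HDM libraries. Its fall was as large, but LY96 HDM library 1 stood below the other LY96 libraries (log2 -0.26 ± 0.07 SE, adjusted p = 0.0395), and the call was lost in 6 of 14 alternatives, with adjusted p up to 0.114.

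COX7C (chromosome 5, 86617904 to 86620962), the most abundant gene of the 62, measured 518, 533 and 536 FPKM in the control HDM libraries and 454, 488 and 489 FPKM in the LY96 HDM libraries and fell (log2 -0.15 ± 0.03 SE, adjusted p = 0.0196). COX6A1 (chromosome 12, 120438090 to 120440742), an accessory subunit at the interface of the enzyme's dimer, measured 274, 276 and 264 FPKM in the control HDM libraries and 239, 253 and 250.3 FPKM in the LY96 HDM libraries and fell (log2 -0.13 ± 0.03 SE, adjusted p = 0.024). The call was lost in 4 of 14 alternatives for COX7C and in 6 of 14 for COX6A1, with adjusted p up to 0.07455 and 0.0876. NDUFA4 was the least abundant of complex IV and measured 62.8 FPKM in the control PBS library, 55.3, 57.0 and 59.6 in the control HDM libraries, 52.0 in the LY96 PBS library and 49.5, 54.0 and 54.3 in the LY96 HDM libraries. Its HDM groups did not overlap, yet it was not called (log2 -0.12, adjusted p = 0.101). COX4I1, COX6C, COX5A, COX6B1, COX7A2, COX7A2L and COX8A ran from log2 -0.19 (COX7A2) to -0.03 (COX6C) and were not called. COX7A2L joins complexes into supercomplexes and is not a subunit in the strict sense.

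Without reference to the model, every LY96 HDM library was below every control HDM library for 39 of the 62 genes, above for 0, and the groups overlapped for 23. Over all tested genes 21.8% were lower in this sense and 15.2% higher. The 39 were 19 of 36 in complex I, 4 of 4 in complex II, 6 of 10 in complex III and 10 of 12 in complex IV. The LY96 HDM libraries did not stand equally low. Library 1 was the lowest of the 3 for 48 genes, library 2 for 8 and library 3 for 6. Over all tested genes these shares were 36.9%, 26.4% and 36.7%. Below every control HDM library stood 59 genes in LY96 HDM library 1, 46 in library 2 and 46 in library 3. Of all tested genes 39.5%, 35.1% and 39% stood so.

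**Figure D2:**
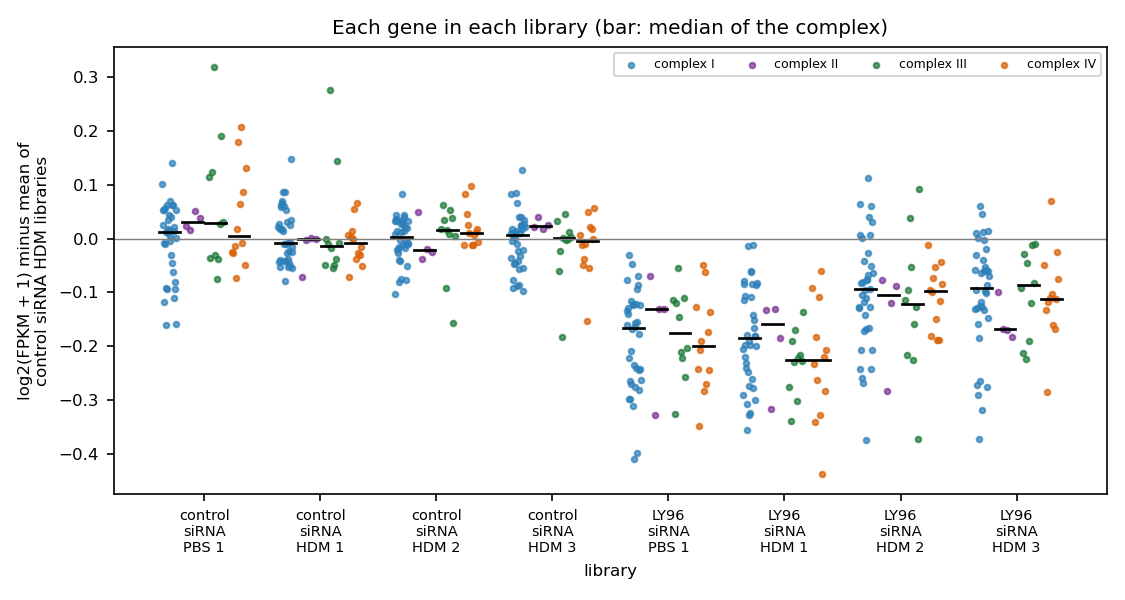
Log2(FPKM + 1) of each of the 62 genes in each of the 8 libraries minus its mean over the 3 control HDM libraries (points, genes coloured by complex; black bars, median of the complex). The median over the 62 genes lies at -0.20 in LY96 HDM library 1, -0.10 in libraries 2 and 3, -0.17 in the LY96 PBS library and 0.02 in the control PBS library.

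Summed over the 62 genes, the control HDM libraries held 5711 to 5784 FPKM and the LY96 HDM libraries 4963 to 5359 FPKM, with means of 5746 ± 36.8 and 5225 ± 227 (SD, n = 3). The ratio of means was 0.909. As a share of the library total, the sum was 1.71% ± 0.0103 in control HDM and 1.56% ± 0.0478 in LY96 HDM libraries. Complex I summed to 2541 ± 3.23 against 2338 ± 84.1 FPKM, and complex II to 277 ± 6.17 against 249.7 ± 5.13 FPKM. Complex III summed to 700.3 ± 11.8 against 638 ± 34.8 and complex IV to 2227 ± 24.95 against 1999 ± 105 FPKM. The ranges of the 2 groups were separate for each complex, and the control HDM libraries were closer to each other than the LY96 HDM libraries in complexes I, III and IV. Exact tests on 3 against 3 libraries cannot give a two-sided p below 0.1, so none was run on the sums.

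**Figure D3:**
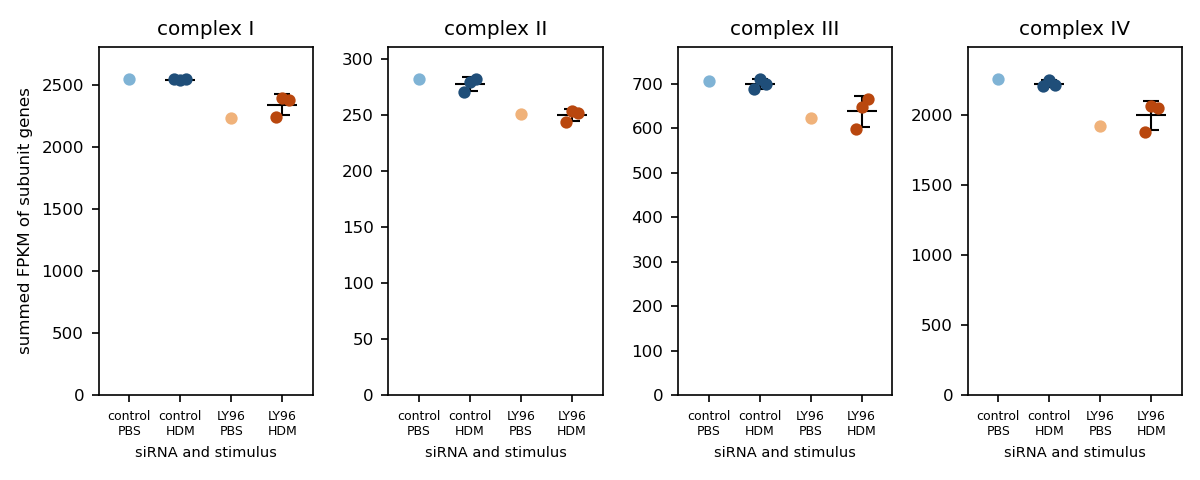
Summed FPKM of the subunit genes of complex I, II, III and IV in each library (points), by siRNA and stimulus, with axes from 0 (bars on HDM groups, mean ± SD, n = 3; PBS groups, 1 library). In each panel the 4 LY96 points lie below the 4 control points.

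The same siRNA difference was read without HDM in the PBS libraries, 1 for each siRNA, which allows no test. All 62 genes were lower in the LY96 PBS than in the control PBS library, where 55.6% of all tested genes were lower. The median log2 difference was -0.20, against -0.02 over all tested genes. By complex it was -0.18 for complex I, -0.17 for complex II, -0.23 for complex III and -0.24 for complex IV. The sum over the 62 genes was 5799.8 FPKM with control siRNA and 5029 FPKM with LY96 siRNA, a ratio of 0.867. The median gene was 13.0% lower.

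Given as the control PBS library against the LY96 PBS library, NDUFB5 measured 73.0 against 52.1 FPKM and NDUFA7 45.8 against 37.7 FPKM. NDUFS6 measured 116 against 111 FPKM and NDUFA8 43.3 against 40.1 FPKM, with ratios of 0.955 and 0.925 in PBS beside 0.827 and 0.790 under HDM, and the test of that difference called neither. In complex II, SDHA measured 137.2 against 128.6 FPKM, SDHB 62.5 against 49.1 FPKM, SDHC 25.6 against 22.5 FPKM and SDHD 57.1 against 50.7 FPKM. All 4 genes were thus lower in the LY96 PBS library, SDHB with the lowest ratio. In complex III, UQCR11 measured 54.1 against 44.1 FPKM, UQCRC2 61.3 against 55.8 FPKM and UQCRFS1 60.3 against 52.9 FPKM. In complex IV, COX5B measured 239.9 against 190.4 FPKM, COX7B 177 against 148 FPKM, COX7C 561 against 469 FPKM and COX6A1 258 against 235 FPKM. For each gene named here the LY96 PBS library was the lower of the pair.

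The PBS pair and the HDM groups share no library. The difference was below 0 under both stimuli for 60 of 62 genes, and for 39.6% of all tested genes. Across the 62 genes the 2 differences correlated with Pearson's r = 0.45 and Spearman's rho = 0.46, and across all tested genes with r = 0.40. These are descriptions over genes measured in the same 8 libraries, and genes are not independent replicates.

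**Figure D4:**
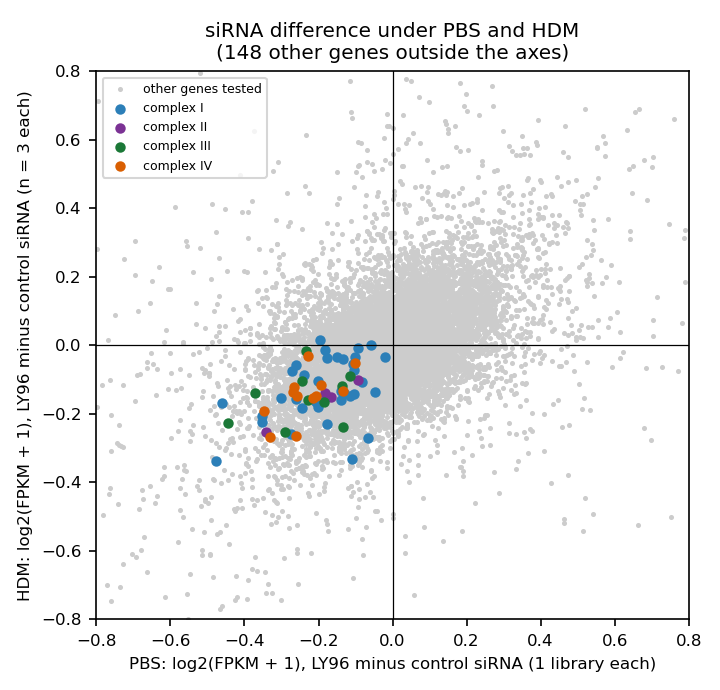
Difference between LY96 and control siRNA in log2(FPKM + 1) under PBS (x axis, 1 library each) and under HDM (y axis, 3 libraries each), for the 62 genes coloured by complex and for other tested genes in grey, of which 148 lie outside the axes. Of the 62 genes, 60 lie in the lower left of the plot.

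The HDM stimulus itself was compared with PBS in each siRNA group, by group means over all 8 libraries. Each PBS group has 1 library, which is assumed to vary as the HDM libraries do. With control siRNA, 0 of 62 genes were called lower and 0 higher, where 0.738% of tested genes were called lower and 1.55% higher. The median log2 difference was -0.02, and 2 genes were lower and 3 higher at an unadjusted p under 0.05, where 6.73% of tested genes were lower and 9.45% higher. With LY96 siRNA, 0 were called lower and 0 higher, where 1.98% of tested genes were lower and 2.91% higher. The median was 0.05, with 1 gene lower and 9 higher at an unadjusted p under 0.05, where 7.28% of tested genes were lower and 9.39% higher. Those 9 included, from the Q module, NDUFS3 (log2 0.23, adjusted p = 0.112), NDUFS8 (0.21, adjusted p = 0.262) and NDUFA6 (0.13, adjusted p = 0.279).

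The calls with LY96 siRNA turned on single libraries. Without LY96 HDM library 1, the library lowest for most of the genes, 4 were called higher with HDM than with PBS: COX8A (log2 0.21, adjusted p = 0.0173), NDUFS3 (0.28, adjusted p = 0.0173), NDUFS8 (0.28, adjusted p = 0.0235) and UQCRQ (0.25, adjusted p = 0.0382). Over all genes 362 were called higher without this library, against 367 with it. NDUFS3 measured 66.3 FPKM in the control PBS library, 61.4, 64.4 and 64.5 in the control HDM libraries, 47.9 in the LY96 PBS library and 52.2, 58.0 and 59.1 in the LY96 HDM libraries, so the LY96 PBS library was the lowest of all 8. Without control HDM library 3, NDUFB7 was called higher (log2 0.20, adjusted p = 0.0494), and 314 over all genes. A p over the threshold does not show that HDM left these genes alike.

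Averaged over both siRNAs, 0 genes were called lower and 1 higher with HDM, where 3.50% of tested genes were called lower and 4.86% higher. The 1 gene was NDUFV3, a small subunit bound to the flavin-carrying part of the N module. It measured 11.5 FPKM in the control PBS library, 12.4, 13.3 and 13.2 in the control HDM libraries, 10.6 in the LY96 PBS library and 12.2, 12.4 and 12.3 in the LY96 HDM libraries. In both siRNA groups each HDM library was above the PBS library (log2 0.17 ± 0.04 SE, limma adjusted p = 0.0343). The call was lost in 7 of 12 alternatives, with adjusted p up to 0.0748, among them leaving out control HDM library 2 or 3 or any 1 of the LY96 HDM libraries. Without LY96 HDM library 1, COX8A and NDUFS8 were called instead (adjusted p = 0.0195 for each), with 555 called higher over all genes against 613 with the library.

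The difference between the siRNAs in their HDM effect was tested directly. It called 0 of the 62 genes in either direction, where 0% of tested genes were called lower and 0.0555% higher. At an unadjusted p under 0.05, 2 genes were lower and 4 higher, where 3.44% of tested genes were lower and 4.15% higher. The median log2 value was 0.06. NDUFS6 had the lowest unadjusted p (log2 -0.21 ± 0.06 SE, adjusted p = 0.438), followed by NDUFS3 (0.29 ± 0.10 SE, adjusted p = 0.528). Thus none of the 62 genes was shown to respond to HDM differently between the siRNAs, in a design with 1 PBS library per siRNA.

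Other genes of mitochondrial energy metabolism were read from the same fit of the 2 siRNAs under HDM, against the 8.92% of tested genes called lower and 6.68% called higher. ATP synthase subunits were lower in 7 of 17 and higher in 0, with a median log2 difference of -0.13. The largest falls were ATP5J (-0.27, adjusted p = 0.0101), ATP5D (-0.25, adjusted p = 0.0395), USMG5 (-0.25, adjusted p = 0.00372) and ATP5G3 (-0.20, adjusted p = 0.0153). Citric acid cycle enzymes were lower in 6 of 13 and higher in 0, with a median of -0.13. The genes called lower included SUCLG1 of succinyl-CoA ligase (-0.21, adjusted p = 0.00341), fumarase FH (-0.19, adjusted p = 0.0167) and malate dehydrogenase MDH2 (-0.17, adjusted p = 0.0184). The mitochondrial ribosome, which translates the mitochondrially encoded subunits, had 14 of 77 genes lower and 0 higher, with a median of -0.09. Its largest falls were MRPL36 (-0.30), MRPS18C (-0.29), MRPS2 (-0.22) and MRPL12 (-0.20).

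Assembly factors help to build the complexes without staying in them. Complex I assembly factors had 0 of 15 called in either direction (median -0.04, with 1 lower and 1 higher at an unadjusted p under 0.05), and those of complex III 0 of 6 (median -0.08, with 1 lower and 0 higher unadjusted). For complex II 1 of 4 was lower, SDHAF3 (-0.31, adjusted p = 0.0199), which serves the maturation of SDHB. For complex IV 5 of 23 were lower and 0 higher (median -0.10). The largest of these were the copper chaperone COX17 (-0.29, adjusted p = 0.00454), CMC2 (-0.20), COX14 (-0.18) and COX16 (-0.15). Whether assembly factors and subunits differ was not tested.

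Of the subunits and carriers that the symbol rule misses, the acyl carrier protein NDUFAB1 of complex I was lower (-0.21, adjusted p = 0.0309). CYC1 (-0.10) and cytochrome c, CYCS (0.06), were not called. Regulators of mitochondrial biogenesis and mtDNA expression had 1 of 13 lower and 0 higher, the mtDNA polymerase POLG (-0.20, adjusted p = 0.00712), with a median of -0.02. Mitochondrial chaperones and proteases had 3 of 11 lower and 0 higher, HSPE1 (-0.23), HSPD1 (-0.18) and TRAP1 (-0.13). HSPA9 and LONP1 were not called between the siRNAs. In another comparison, HDM against PBS averaged over both siRNAs, they were called higher with HDM (log2 0.17 and 0.16). Read by siRNA, 0 of the 11 genes were called higher with HDM in control siRNA cells and 2 in LY96 siRNA cells. Each was set against 1 PBS library, and 1.55% and 2.91% of all tested genes were called higher.

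Cytosolic ribosomal proteins had 4 of 75 genes lower and 11 higher, with a median log2 difference of 0.05, and took 13.2% ± 0.108 of the total in control HDM and 13.7% ± 0.110 in LY96 HDM libraries (SD, n = 3). A set of 6 genes, ATF4 and its known targets, was known to be high in these data before it was chosen. All 6 were higher in LY96 HDM libraries, with a median of 1.59, and ATF4 itself rose by log2 0.93. In PBS the levels of ATF4 were 123 FPKM with control and 135 FPKM with LY96 siRNA. Its part in the values of the subunit genes was not tested.

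**Figure D5:**
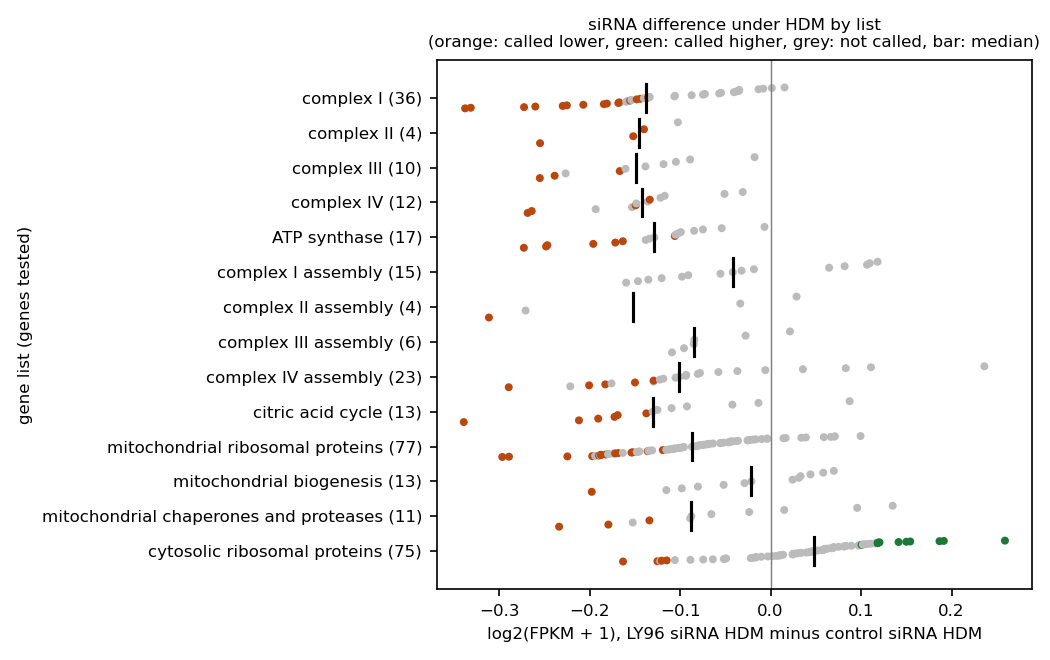
Difference between LY96 HDM and control HDM libraries in log2(FPKM + 1) for each gene of 14 lists (points; orange, called lower; green, called higher; grey, not called; bars, median of the list; number of genes in parentheses). Medians lie between -0.15 and -0.13 for complexes I to IV, ATP synthase, complex II assembly and the citric acid cycle, and at 0.05 for cytosolic ribosomal proteins.

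Level and transcript length were set beside the calls, since the subunit genes are abundant and short. Their median transcript length was 703 nt, against 1799.5 nt for tested genes. Among tested genes with a mean from 50 to 100 FPKM, 19.6% were called lower, and from 100 FPKM 17.4%. Among genes averaging 20 FPKM or more with a length under 1000 nt, the respiratory chain genes left out, 13.4% of 1169 were called lower, with a median log2 difference of -0.02. Of the 57 respiratory chain genes that average 20 FPKM or more, 24 were called lower, which is 42.1%, with a median of -0.14. These 57 were limited by level and not by length. Limited by length and not by level, 21 of the 48 under 1000 nt were called lower (43.75%), with a median of -0.15.

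Of the 61 genes annotated as protein coding, 12 (19.7%) start within 1000 bases of an oppositely directed protein-coding gene, against 9.86% of 11287 tested genes. NDUFS6 and MRPL36, a protein of the mitochondrial ribosome, start 34 bases apart, and both were lower in LY96 HDM libraries (log2 -0.27 and -0.30). NDUFB5 and MRPL47 start 36 bases apart, and MRPL47 was not called (log2 -0.09, adjusted p = 0.464). CPSF2 beside NDUFB1 (log2 -0.09) and CCDC127 beside SDHA (log2 -0.09) were not called either. The counting of strand is not given in the sources used here, so values of overlapping and antisense genes such as NDUFA6-AS1 (2.48 FPKM) and NDUFA6 are uncertain.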

How the data were processed

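RNA of 8 BEAS-2B libraries was deposited by the authors as 1 table per library, with 26485 gene symbols and 1 value each. No unit is named in the tables or labels. The deposited numbers were taken to be FPKM because they have decimals, sum to different totals in each library and hold no steps of single reads. Depth is therefore unknown, and intervals for counting error were not computed. Per the submitters' processing notes, the tools include the aligner HISAT2 2.2.0 and the build is hg38. Which program computed the values, and on which annotation, is not given in the sources used here.

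Libraries were grouped by their titles. Tests used limma 3.58.1 in R 4.3.3 (mean-variance trend, robust, two-sided) on log2(FPKM + 1), for genes averaging 1 FPKM or more in the libraries fitted, with Benjamini-Hochberg adjustment over all tested genes and a threshold of 0.05. The pseudocount understates changes of low genes. The siRNA comparison under HDM used the 6 HDM libraries, and HDM effects and their difference used 4 group means over 8 libraries. On simulated data of 12610 genes, the siRNA fit under HDM called 100 of 100 genes changed by log2 1. It also called 100 of 100 changed by log2 2, with 9 unchanged genes among its 209 calls. No smaller change was simulated, so differences as small as those of the respiratory chain genes were not covered. No table was a duplicate of another, and pairwise correlations across genes ran from r = 0.992 to 0.997.

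The genes and lists were chosen with earlier results of these data known. Values in every library are given for called genes (up to 4 largest changes per complex and comparison), the most and least abundant gene of each complex, and all SDH genes, and for NDUFS3 by choice after its values were seen. Of other lists, counts, medians and up to 4 called genes are given. Some genes enter the counts but are not reported here by name. Alternatives were another pseudocount, no filter, median-ratio scaling, quantile normalization, plain moderation, other models, a replicate block and each HDM library left out. Coordinates are of GENCODE 29 (GRCh38), and promoters of RefSeq (GRCh38.p14). Python 3.11.15 was used for descriptions.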

Additional observations from a re-analysis of the deposited data

How the results depend on the processing

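Limits of these values are the unknown read depth, 3 libraries per HDM group, 1 library per PBS group, unnamed upstream software and possible sharing of reads with copies of SDHA, UQCRH and UQCRB. Of 62 genes, 25 were called lower with LY96 siRNA under HDM. The count was 12 with no filter on low values, 12 with no trend and no robust moderation, 38 with additive siRNA and HDM terms over 8 libraries, and 11 to 21 when each HDM library was left out in turn. Over all genes these settings called 752, 820 and 1484 lower, and 553 (without control HDM library 2) to 799 lower (without LY96 HDM library 2), against 1124. Without LY96 HDM library 1 the median log2 difference of complex III was -0.10, against -0.15. Genes called higher with HDM in LY96 siRNA cells numbered 0, and 0 to 4 with a library left out (4 without LY96 HDM library 1, with 362 over all genes against 367). Averaged over both siRNAs, 1 was called higher, 0 with no filter, 0 with no trend and no robust moderation, and 0 to 2 with a library left out. The cause of these changes was not tested. The median of a complex was also taken under the other pseudocount, the scalings or with NDUFA4 counted in complex I. All 70 values stayed within 1 SD of the complex's spread between libraries. That SD ran from 0.037 (complex II) to 0.066 (complex IV) in log2. Most medians in the comparisons that use PBS were smaller, such as -0.005 for complex IV with control siRNA. A change of sign could thus pass this check there. With the replicate block, 23 of the genes were lower and 0 higher, and over all genes 919 were lower. Same-numbered libraries did not clearly deviate together (r = 0.048, -0.016 and -0.016), and not every library correlated best with its own number. With 3 libraries per group these correlations cannot show whether same-numbered libraries shared a culture or batch. Over all genes, HDM against PBS with control siRNA called 93 lower, 47 with no trend and no robust moderation, and HDM against PBS with LY96 siRNA 250 and 158. The difference in the HDM effect called 7 genes higher and 0 lower, with 0 to 31 higher and 0 to 7 lower over the alternatives; at an unadjusted p under 0.05 the count for the 62 genes was 4 higher and 2 lower, where 4.15% of all tested genes were higher and 3.44% lower.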
